A study of Homo sapiens with 16 samples.

Results

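Levels of 10 enzymes that reduce carbonyl compounds or conjugate electrophiles to glutathione were followed in gut and liver cells. They were 5 aldo-keto reductases (AKR1B10, AKR1C1, AKR1C2, AKR1C3 and AKR1A1) and 5 glutathione transferases (GSTA1, GSTA2, GSTP1, GSTK1 and MGST1), found by gene symbol among 60623 listed genes. RNA came from Caco-2, a human colon tumour line that served as the gut cell, and HepG2, a human liver tumour line, which shared a chip with separate chambers. Mono-culture denotes a line kept by itself and co-culture a line whose chamber was linked to that of the other, and in either case cells stayed untreated (control) or received palmitic and oleic acid as free fatty acids (FFA) at 1 mM in total. With 2 replicates in every one of the 8 groups, 4 for each line, there were 16 libraries of polyadenylated RNA read on a Nanopore instrument. The study sequenced RNA after 1 day of treatment and after a longer one, and by their labels these libraries are of the former kind. Their titles also carry the tag LTC, which no source used here explains, so the length of treatment rests on the label alone. The study gives independent experiments as the basis of its mRNA sequencing, but the labels do not say which experiment a library came from.

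Aldo-keto reductases use NADPH to turn aldehydes and ketones into alcohols. AKR1B10 reduces retinaldehyde and reactive lipid aldehydes, the AKR1C enzymes act on steroids, prostaglandins and bile acid precursors, and AKR1A1 is a broadly expressed aldehyde reductase. Glutathione transferases join glutathione to electrophiles such as products of lipid peroxidation. GSTA1 and GSTA2 are the alpha-class enzymes known for high levels in normal liver, GSTP1 is the pi-class enzyme that normal hepatocytes largely lack, GSTK1 is found in mitochondria and peroxisomes, and MGST1 is bound to membranes. Many genes of both families are known targets of the transcription factor NRF2.

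Levels are given as CPM, which put every library on the same read total. The libraries held 49634 to 1657430 reads, so 1 read stood for 0.603 to 20.1 CPM, and a level that rested on 3 reads or fewer was treated as at the floor of detection. The shallowest library was HepG2 co-culture FFA replicate 2, with a floor of 60.4 CPM, followed by replicate 1 of the same group with 147096 reads and a floor of 20.4 CPM. Of 15 marker genes of HepG2 cells, 12 were higher in each HepG2 library than in any Caco-2 library, but for Caco-2 this held for 3 of 12 intestinal markers, and CDX1, an intestinal transcription factor, was at 0 in all 16 libraries. In the averaged test between the lines given below, 9 of 10 tested intestinal markers passed as lower in HepG2 and 0 as higher (17.9% and 12.5% of all genes). Of the 15 HepG2 markers, 13 passed as higher in HepG2 and 2 as lower. The share of mitochondrial transcripts was lower in Caco-2 (2.73% to 3.97% of the reads) than in HepG2 (6.29% to 10.6%). As RNA was taken from whole cultures, a gene used by fewer cells and a gene with less RNA per cell cannot be told apart.

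The genes lie on 6 chromosomes (GRCh38). AKR1C1 (chr10:4963253-4983283), AKR1C2 (chr10:4987775-5018031, on the opposite strand) and AKR1C3 (chr10:5035354-5107686) are neighbours within 144 kb. GSTA2 (chr6:52750087-52763475) and GSTA1 (chr6:52791371-52803860) lie on the same strand within 53.8 kb. AKR1B10 (chr7:134527567-134541412), GSTK1 (chr7:143244093-143270854), AKR1A1 (chr1:45550543-45570049), GSTP1 (chr11:67583742-67586656) and MGST1 (chr12:16347142-16609259) stand apart from these clusters. All are protein-coding genes.

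Sequence was looked at in a pair of respects. The first is that neighbours resemble each other. The main transcripts of AKR1C1 and AKR1C2 aligned over 3220 bases at 96.8% identity, AKR1C1 and AKR1C3 over 1195 bases at 89.4%, and GSTA1 and GSTA2 over 1218 bases at 95.2%. Reads of AKR1C1 and AKR1C2, or of GSTA1 and GSTA2, can therefore be split between the 2 genes by the mapping, and each such pair was also tested as a sum. The second is that GSTA1 and GSTA2 have nearly the same start region, whose part in their levels was not tested. The windows from 250 bases before to 50 bases after their start sites (RefSeq, GRCh38.p14), chr6:52803767-52804066 for GSTA1 and chr6:52763426-52763725 for GSTA2, both on the minus strand, were identical at 288 of 300 positions, and the 12 bases that differ are in capitals.
GSTA1: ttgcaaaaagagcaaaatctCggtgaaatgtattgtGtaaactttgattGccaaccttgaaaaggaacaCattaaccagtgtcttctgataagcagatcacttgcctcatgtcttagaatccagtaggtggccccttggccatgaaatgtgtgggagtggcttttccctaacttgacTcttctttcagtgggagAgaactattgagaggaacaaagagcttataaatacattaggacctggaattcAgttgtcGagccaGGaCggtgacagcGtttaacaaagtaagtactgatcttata
GSTA2: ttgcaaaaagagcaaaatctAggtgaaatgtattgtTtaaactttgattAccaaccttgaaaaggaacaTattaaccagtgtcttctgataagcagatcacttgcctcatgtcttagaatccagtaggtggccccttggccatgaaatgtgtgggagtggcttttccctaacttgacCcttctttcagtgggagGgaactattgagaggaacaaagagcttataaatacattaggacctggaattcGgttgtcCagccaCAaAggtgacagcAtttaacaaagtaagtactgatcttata

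The start regions of AKR1C1 (chr10:4963165-4963464, plus strand) and AKR1C2 (chr10:5003808-5004107, minus strand) aligned with 288 identical bases, 4 mismatches and 16 gap bases. They are shown because this pair differed in how it divided its reads between the lines, and the part of the start regions in that was not tested. Capitals mark mismatched bases and bases with no partner in the alignment, which include the ends, as the windows are shifted against each other.
AKR1C1: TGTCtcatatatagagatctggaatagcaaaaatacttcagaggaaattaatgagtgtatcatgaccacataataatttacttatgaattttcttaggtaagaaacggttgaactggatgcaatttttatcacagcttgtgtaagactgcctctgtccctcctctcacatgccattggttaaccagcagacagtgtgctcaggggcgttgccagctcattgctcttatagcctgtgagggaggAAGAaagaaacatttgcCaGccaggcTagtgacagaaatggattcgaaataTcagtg
AKR1C2: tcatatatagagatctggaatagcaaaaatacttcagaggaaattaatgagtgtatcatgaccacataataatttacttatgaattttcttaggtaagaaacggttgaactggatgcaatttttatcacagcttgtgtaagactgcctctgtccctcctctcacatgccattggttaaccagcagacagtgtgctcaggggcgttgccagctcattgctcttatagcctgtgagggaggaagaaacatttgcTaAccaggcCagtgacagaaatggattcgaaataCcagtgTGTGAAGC

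The start region of GSTP1 (chr11:67583562-67583861, plus strand), the gene with the widest difference between the lines, was of another kind. It held 36 CpG dinucleotides, more than 87.3% of 35116 such windows held (median 14), against 4 in GSTA1 and 1 in GSTA2. On the gene strand it had TGACTCAGC starting 66 bases before the start site (capitals), which matches both the antioxidant response element core TGACNNNGC and, in its first letters, the AP-1 site TGACTCA. Among all windows, 13.3% held the former and 4.95% the latter on either strand.
GSTP1: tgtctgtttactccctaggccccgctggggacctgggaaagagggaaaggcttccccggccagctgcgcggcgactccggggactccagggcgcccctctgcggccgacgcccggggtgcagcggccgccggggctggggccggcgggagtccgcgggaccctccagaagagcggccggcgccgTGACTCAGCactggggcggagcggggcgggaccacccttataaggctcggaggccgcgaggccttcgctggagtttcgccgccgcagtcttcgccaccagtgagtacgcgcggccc

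Of the 9 genes with a window in that table (AKR1B10 had none), MGST1 was the only other one with TGACNNNGC, in 1 of its 3 windows. GSTA1 and GSTA2 each had the TATA box TATAAA on the gene strand 30 bases before the start site. A window of MGST1 had these letters on the gene strand at −197, and a window of AKR1C3 had them on the other strand at −26. Of all windows, 11.5% held them at any position on either strand. These matches describe the letters of the windows and were not tested as binding sites.

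The first question was how far the liver and gut lines differ in these enzymes. Averaged over the 4 conditions, 4 of the 10 genes were higher in HepG2 (AKR1B10, AKR1C3, AKR1C1 and AKR1A1), 5 were lower (GSTP1, GSTA2, GSTA1, GSTK1 and MGST1), and AKR1C2 did not pass (limma, adjusted p under 0.05 over 17544 genes). All 4 that passed as higher were thus aldo-keto reductases, and all 5 that passed as lower were glutathione transferases. Of all genes tested, 30.3% passed, 12.5% as higher and 17.9% as lower in HepG2, so a difference between these lines was common in itself. The median difference of the 10 genes was −0.44 on the log2 scale, beside −0.16 over all genes. Over all genes the median was 0.0 in mono-culture control, mono-culture FFA and co-culture control. It was −0.42 in co-culture FFA (1172 genes higher, 1955 lower), the condition with the shallowest HepG2 libraries. In 4 of the 10 genes (AKR1C1, AKR1C3, GSTA1 and GSTP1), all 8 libraries of one line lay apart from all 8 of the other, which 10.3% of the genes tested did. For GSTA1 this includes a HepG2 library at 0 whose floor, 60.4 CPM, was above the lowest Caco-2 library. Without both HepG2 co-culture FFA libraries, 9 genes passed as well.

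**Figure D1:**
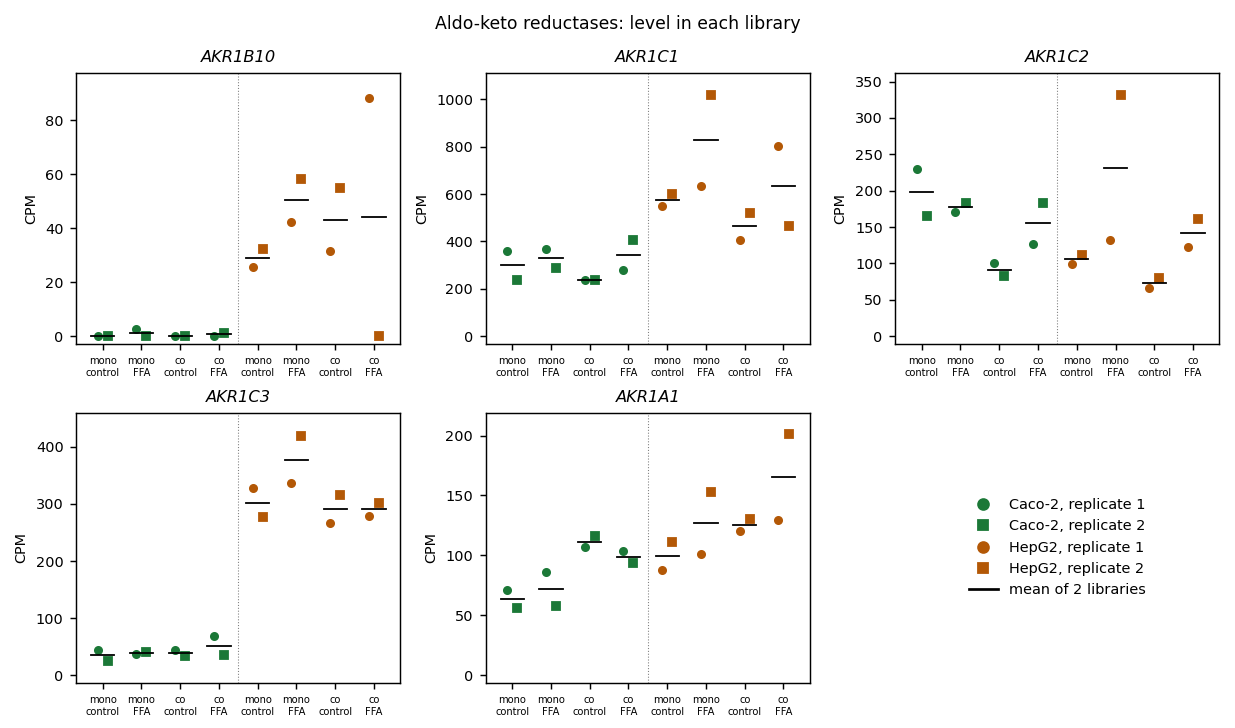
Level in CPM (linear axis) of 5 aldo-keto reductases in each of 16 libraries, by group, with Caco-2 in green on the left and HepG2 in brown on the right of each panel; circles and squares are replicates 1 and 2 and the black line is their mean. AKR1B10 reached no more than 2.48 CPM in Caco-2 but 25.5 to 88.4 CPM in 7 HepG2 libraries, with 0 in the shallowest.

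AKR1B10 was almost absent from Caco-2. It had 0 CPM in 6 of the Caco-2 libraries, 2.48 CPM in mono-culture FFA replicate 1 and 1.24 CPM in co-culture FFA replicate 2, each of the latter being 1 read. In HepG2 it had 25.5 and 32.3 CPM in mono-culture control, 42.4 and 58.2 CPM in mono-culture FFA, 31.4 and 55.0 CPM in co-culture control, and 88.4 and 0 CPM in co-culture FFA. The HepG2 library at 0 was the shallowest one, in which a level up to 60.4 CPM could go unseen. Pooled over libraries, 195 reads in HepG2 stood against 2 in Caco-2, a 96.2-fold ratio with a 95% counting interval of 26.3 to 800 that covers counting error only. The averaged difference was 4.43 (SE 0.72) on the log2(CPM + 1) scale, on which changes of low genes are understated (adjusted p = 0.000298, limma).

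AKR1C3, a reductase of steroids and prostaglandins, kept the lines apart at every condition. In Caco-2 it had 43.8 and 25.9 CPM in mono-culture control, 37.1 and 40.2 CPM in mono-culture FFA, 43.6 and 33.9 CPM in co-culture control, and 68.7 and 35.7 CPM in co-culture FFA. In HepG2 the same groups had 327 and 278, 337 and 418, 266 and 315, and 279 and 302 CPM. The lowest HepG2 library was well above the highest Caco-2 library, and the pooled ratio was 7.01 (6.06 to 8.15). The averaged difference was 2.94 (SE 0.16, adjusted p = 4.63e-09, limma).

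AKR1C1, which inactivates progesterone, had 361 and 236 CPM in Caco-2 mono-culture control, 368 and 288 in mono-culture FFA, 238 and 237 in co-culture control, and 278 and 407 in co-culture FFA. In HepG2 it had 550.1 and 599 CPM in mono-culture control, 636 and 1019 in mono-culture FFA, 408 and 519 in co-culture control, and 802 and 463 in co-culture FFA. The lines did not overlap, but only narrowly, since 407 CPM in Caco-2 and 408 CPM in HepG2 met at the edge. The averaged difference was 1.02 (SE 0.15, adjusted p = 9.99e-05, limma), and the pooled ratio was 1.82 (1.71 to 1.94).

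AKR1C2, its close neighbour, overlapped between the lines, with Caco-2 between 82.0 and 229.9 CPM and HepG2 between 65.8 and 331 CPM. Its averaged difference was −0.27 (SE 0.18, 95% interval −0.65 to 0.11, adjusted p = 0.275, limma). HepG2 mono-culture FFA replicate 2 held the highest value of 331 CPM, and without that library the difference was −0.44 (adjusted p = 0.0279, limma); edgeR on whole reads gave −0.37 (adjusted p = 0.0234). The share of AKR1C1 in the summed CPM of the pair was 58.8% to 74.3% in Caco-2 (median 68.5%) and 74.2% to 86.8% in HepG2 (median 84.5%). The sum of both was higher in HepG2 by 0.70 (SE 0.14, adjusted p = 0.00117, limma).

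AKR1A1 had the smallest of the differences that passed. It lay at 56.4 to 116 CPM in Caco-2 (median 90.1) and at 88.2 to 201 CPM in HepG2 (median 125), with overlap. The averaged difference was 0.58 (SE 0.15, adjusted p = 0.00815, limma), and after all libraries were thinned to the depth of the shallowest it was 0.53 and did not pass (adjusted p = 0.443).

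**Figure D2:**
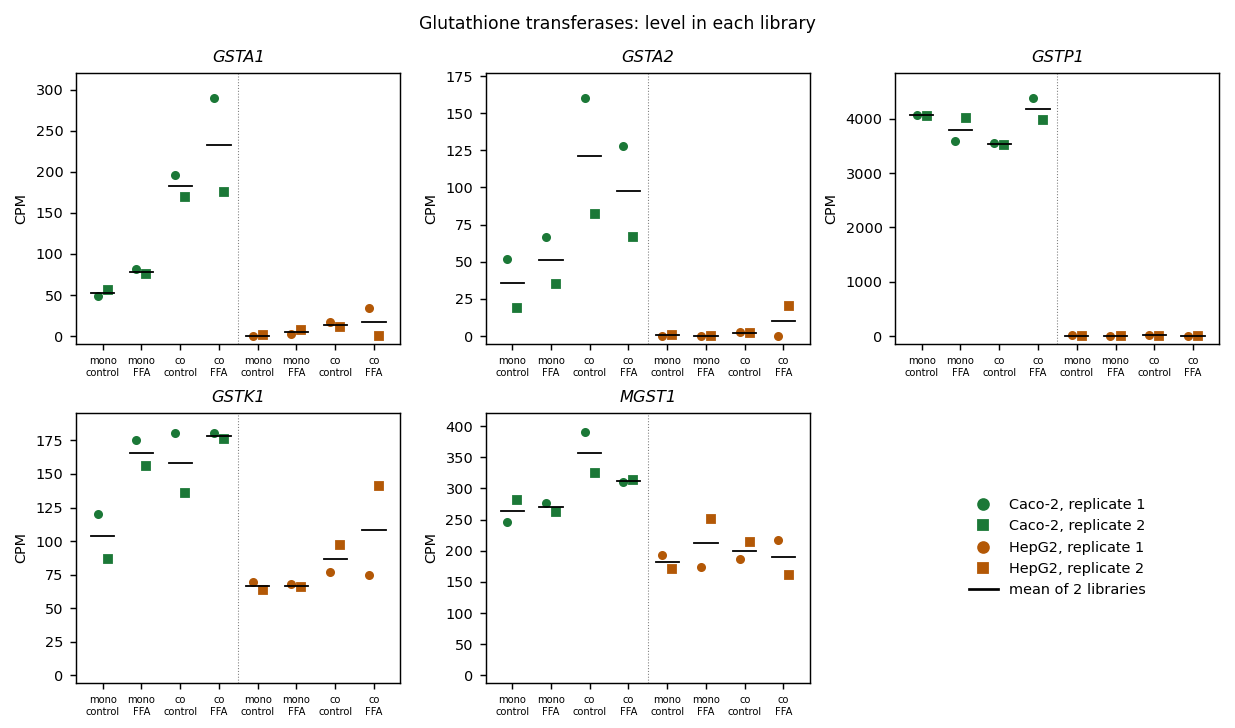
Level in CPM (linear axis) of 5 glutathione transferases in each of 16 libraries, drawn as for the aldo-keto reductases. GSTP1 lay at 3524 to 4391 CPM in the Caco-2 libraries but at 0 to 16.3 CPM in HepG2, and GSTA1 in Caco-2 was higher in all 4 co-culture libraries than in any mono-culture library.

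GSTP1 had the widest difference of all 17544 genes tested. In Caco-2 it had 4080.5 and 4061 CPM in mono-culture control, 3588 and 4017 in mono-culture FFA, 3564 and 3524 in co-culture control, and 4391 and 3971 in co-culture FFA. In HepG2 it had 16.2 and 2.94 CPM in mono-culture control, 9.42 and 7.28 in mono-culture FFA, 16.3 and 5.28 in co-culture control, and 6.80 and 0 in co-culture FFA. Caco-2 levels ran from 3524 to 4391 CPM, and 4 of the 8 HepG2 libraries were at or under their floor. Pooled, 19447 reads in Caco-2 stood against 49 in HepG2, a ratio of 402 (304 to 544). The averaged difference was −9.15 (SE 0.39, adjusted p = 4.06e-10, limma).

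GSTA1 and GSTA2, the alpha-class enzymes, were both lower in the liver line. GSTA1 ranged from 49.3 to 290.4 CPM in Caco-2 and from 0 to 34.0 CPM in HepG2, with no overlap, and GSTA2 from 18.8 to 160.5 CPM and from 0 to 20.1 CPM. The shallowest HepG2 library had 0 reads of GSTA1 and a floor of 60.4 CPM, so a level within the Caco-2 range could go unseen there. The highest GSTA2 value in HepG2, 20.1 CPM, was a single read of the shallowest library. For GSTA1, 5 of the 8 HepG2 libraries were at or under the floor, and for GSTA2, 7 were. The pooled Caco-2 to HepG2 ratio was 15.7 (11.7 to 21.6) for GSTA1 and 47.2 (23.7 to 110) for GSTA2. The averaged differences were −4.52 (SE 0.55, adjusted p = 2.11e-05) and −4.91 (SE 0.53, adjusted p = 6.46e-06), and −4.50 (SE 0.28, adjusted p = 2.07e-08) for their sum (limma).

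GSTK1 and MGST1 differed less and overlapped between the lines. GSTK1 lay at 86.9 to 181 CPM in Caco-2 (median 166) and at 63.5 to 141 CPM in HepG2 (median 72.2), where the highest value was 7 reads of the shallowest library. Its averaged difference was −0.89 (SE 0.15, adjusted p = 0.000334, limma), and −1.34 after thinning, which did not pass (adjusted p = 0.0861). MGST1 lay at 246 to 390.3 CPM in Caco-2 (median 296) and at 161 to 251 CPM in HepG2 (median 190), with a difference of −0.62 (SE 0.10, adjusted p = 0.000371, limma).

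**Figure D3:**
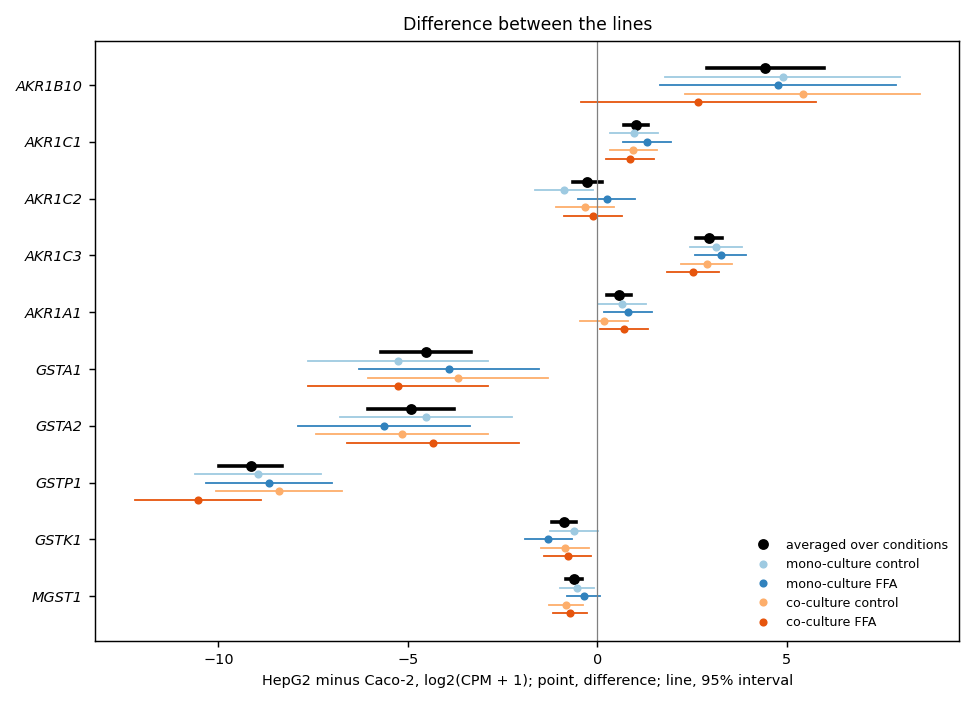
HepG2 minus Caco-2 difference of each of the 10 genes on the log2(CPM + 1) scale, averaged over conditions (black) and in each of 4 conditions (colours); points are differences, lines are 95% intervals and 0 means no difference. GSTP1 lay between −10.55 and −8.41 in the 4 conditions, and AKR1C2 on both sides of 0.

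Within single conditions fewer genes passed, each contrast resting on 2 libraries a line. In mono-culture control, the condition without co-culture or FFA, 5 genes passed (GSTP1, AKR1C3, GSTA1, GSTA2 and AKR1B10), beside 10.6% of all genes, and AKR1C1 had an adjusted p of 0.0504 (limma). In mono-culture FFA 7 passed (background 12.3%), in co-culture control 5 (9.91%), and in co-culture FFA 5 (17.8%). GSTP1, AKR1C3 and GSTA2 passed in all 4 conditions. AKR1B10 passed in 3, and in co-culture FFA its difference was 2.66 (SE 1.44, adjusted p = 0.224, limma), where 1 of the HepG2 libraries was at 0. The lowest and highest differences over the 4 conditions were −10.55 and −8.41 for GSTP1, 2.53 and 3.25 for AKR1C3, and 0.86 and 1.30 for AKR1C1.

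Whether the lines answered FFA or co-culture differently was tested as an interaction. No gene of the 10 passed for FFA (16 genes passed in all, 0.0912%) or for co-culture (17 genes, 0.0969%), and none had an unadjusted p under 0.05 in either (limma). By edgeR, GSTK1 passed for FFA (−0.99, adjusted p = 0.0278), and by DESeq2 none of the 10 did. For co-culture neither tool called any of the 10. Over all genes, the alternative settings called 0 to 604 for FFA and 2 to 99 for co-culture. The smallest p for FFA was that of AKR1C2 (0.67, SE 0.35, 95% interval −0.10 to 1.43, adjusted p = 0.525), and for co-culture that of MGST1 (−0.33, SE 0.21, interval −0.77 to 0.11, adjusted p = 0.664). Intervals for genes near the floor were wide, for GSTA1 from −2.25 to 2.49 for co-culture, so differences of a few log2 units were not excluded.

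The next question was what connection to the liver line did to these genes in Caco-2. Among the 4 Caco-2 conditions GSTA1 passed as the only one of the 10 (adjusted p = 0.00206, limma F-test over 15454 genes, of which 0.155% passed). It rose with co-culture. GSTA1 had 49.3 and 56.4 CPM in mono-culture control, 81.6 and 75.5 CPM in mono-culture FFA, 196 and 169.6 CPM in co-culture control, and 290.4 and 175 CPM in co-culture FFA, so that each co-culture library was above every mono-culture library. Averaged over treatment, the co-culture effect was 1.64 (SE 0.17, 95% interval 1.28 to 2.00, adjusted p = 0.000241, limma), a 3.12-fold difference, beside 0.453% of genes that passed (49 higher and 21 lower) and a median of 0.14 over all genes. It passed without FFA (1.77, SE 0.24, adjusted p = 0.00517) and with FFA (1.51, SE 0.24, adjusted p = 0.0260), where 0.0971% of genes passed in each case (limma). With a constant in place of a trended prior variance the averaged effect had the same size and did not pass (adjusted p = 0.182), nor did it without mono-culture control replicate 2 (1.69, adjusted p = 0.0798) or after thinning (3.17, adjusted p = 0.576). The call without FFA was lost when any 1 of the 8 libraries was left out (adjusted p 0.0708 to 0.255, limma). The F-test and the call with FFA were lost without any 1 of the mono-culture or co-culture control libraries (adjusted p 0.0762 to 0.146 and 0.143 to 0.196, limma), and with a pseudocount of 0.1 the F-test and both single-treatment calls were lost (adjusted p = 0.085, 0.0853 and 0.232). The averaged effect passed in edgeR (1.56, adjusted p = 2.89e-16) and DESeq2 (1.56, adjusted p = 2.27e-08).

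**Figure D4:**
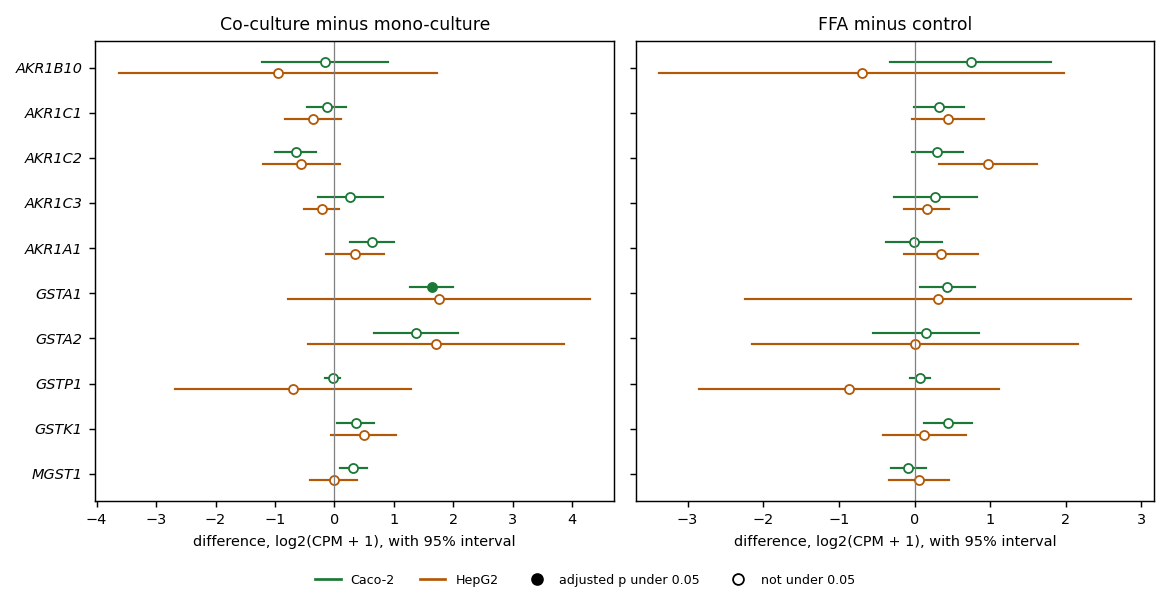
Co-culture minus mono-culture (left, averaged over treatment) and FFA minus control (right, averaged over culture) differences on the log2(CPM + 1) scale for each gene in Caco-2 (green) and HepG2 (brown), with 95% intervals; filled points passed an adjusted p under 0.05 (limma). GSTA1 in Caco-2 co-culture, at 1.64, is the only filled point.

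GSTA2 in Caco-2 had 52.0 and 18.8 CPM in mono-culture control, 66.8 and 35.4 in mono-culture FFA, 160.5 and 82.0 in co-culture control, and 128 and 66.5 in co-culture FFA. Replicate 1 was the higher one in each of the 4 groups. The highest mono-culture library met the lowest co-culture library, and the averaged effect of 1.37 (SE 0.33) did not pass in limma (adjusted p = 0.0905). It passed with the replicate number as a block (adjusted p = 0.000266, limma), in edgeR (adjusted p = 5.29e-09), in DESeq2 (adjusted p = 0.0105) and when low genes were left out (mean under 10 CPM; adjusted p = 0.00318, limma). The sum of GSTA1 and GSTA2, 75.2 to 148 CPM in mono-culture and 241 to 419 CPM in co-culture, had a co-culture effect of 1.54 (SE 0.19, adjusted p = 0.00157, limma).

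AKR1C2 went the other way in size. It had 229.9 and 166 CPM in Caco-2 mono-culture control, 171 and 183 in mono-culture FFA, 101 and 82.0 in co-culture control, and 127 and 184 in co-culture FFA. The averaged co-culture effect was −0.65 (SE 0.16, adjusted p = 0.096, limma) and did not pass, whereas it did with the replicate block (adjusted p = 0.0397), when genes under 10 CPM were left out (adjusted p = 0.0146), in edgeR (−0.72, adjusted p = 0.00146) and in DESeq2 (−0.73, adjusted p = 0.0361). Without FFA the effect was −1.09, which did not pass in limma (adjusted p = 0.110) but did with the block (adjusted p = 0.0295), without genes under 10 CPM (adjusted p = 0.00812) and in edgeR (−1.25, adjusted p = 0.000197). With FFA it was −0.21 (adjusted p = 0.834, limma). AKR1C1 had an averaged effect of −0.13 (SE 0.15, adjusted p = 0.747, limma), and the share of AKR1C1 in the pair had a median of 61.1% in mono-culture and 69.5% in co-culture.

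AKR1A1 had 56.4 to 86.5 CPM in the mono-culture and 93.6 to 116 CPM in the co-culture libraries of Caco-2, with no overlap, and an effect of 0.64 (SE 0.17, adjusted p = 0.140, limma) that did not pass. MGST1 likewise had 246 to 282 and 309.9 to 390.3 CPM (0.32, SE 0.11, adjusted p = 0.260). With GSTA1, these made 3 of the 10 genes whose mono-culture and co-culture libraries lay apart in Caco-2, beside 5.93% of all genes. GSTP1 differed by −0.03 on average (95% interval −0.17 to 0.10), from a difference of −0.20 without FFA (interval −0.39 to −0.01, adjusted p = 0.451, limma) and one of 0.14 with FFA (interval −0.05 to 0.33, adjusted p = 0.737). DESeq2 called it lower without FFA (−0.37, adjusted p = 0.0381), and edgeR did not (−0.40, adjusted p = 0.423).

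Genes listed as HepG2 markers also differed with co-culture in Caco-2, although Caco-2 itself expressed several of them. Of the 15, 12 were higher in each HepG2 library than in any Caco-2 library, but TTR, RBP4 and VTN were not. TTR had 752 to 1457 CPM in Caco-2 against 498.5 to 1047 CPM in HepG2, and VTN 927 to 1441 against 355 to 685 CPM. SERPINA1, higher in HepG2, still had 2564 to 3324 CPM in Caco-2. The summed level of 15 HepG2 markers was 7959 to 9124 CPM in Caco-2 mono-culture control and 9909 to 10071.5 CPM in co-culture control, and 8427 to 9046 CPM and 10033.5 to 10201.5 CPM in the FFA groups. Their median co-culture effect was 0.48, beside 0.14 over all genes, and 2 of the 15, AFP (0.96, adjusted p = 0.00538) and TTR (0.58, adjusted p = 0.0114), passed as higher (limma). The highest co-culture library was above the highest mono-culture library for each of these markers but AHSG and SERPINA1. For ALB, the serum albumin gene, the highest library had 561 CPM in mono-culture and 965 CPM in co-culture, and for TF, the transferrin gene, 2.48 and 5.94 CPM. GSTA1 itself had 0 to 7.28 CPM in HepG2 mono-culture, below each Caco-2 library. The summed level of 12 Caco-2 markers was 189 to 252 CPM in mono-culture and 234 to 296 CPM in co-culture, which overlapped. None of the 10 tested Caco-2 markers passed (median effect 0.63). The part of either in the GSTA1 difference was not tested.

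FFA gave no call among the 10 genes in Caco-2. None passed (limma, 0 of 15454 genes, 0%), 2 of the 10 had an unadjusted p under 0.05 (750 genes in all), and edgeR and DESeq2 called none of the 10. The smallest p was that of GSTK1, which had 120.4 and 86.9 CPM in mono-culture control and 176 and 156 CPM in mono-culture FFA, then 180.3 and 136 CPM in co-culture control and 181 and 176 CPM in co-culture FFA. Its averaged FFA effect was 0.44 (SE 0.15, 95% interval 0.12 to 0.76, adjusted p = 0.829, limma). GSTA1 had 0.43 (interval 0.07 to 0.80, adjusted p = 0.829), and GSTP1 0.07 (interval −0.07 to 0.20).

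In HepG2 no gene of the 10 passed among the 4 conditions (limma, 0 of 14430 genes, 0%), with 1 of the 10 at an unadjusted p under 0.05 (1759 genes in all). By edgeR 2 passed (AKR1C2 and GSTA1), and by DESeq2 1 (AKR1C2). Over all genes, the alternative settings called 0 to 543 here. AKR1C2 had 99.8 and 111 CPM in mono-culture control, 132 and 331 in mono-culture FFA, 65.8 and 79.3 in co-culture control, and 122 and 161 in co-culture FFA. Each FFA library was above the control libraries of the same culture, but the share of all genes that did so was not counted. The averaged FFA effect was 0.97 (SE 0.28, 95% interval 0.32 to 1.61), a 1.95-fold difference, with an unadjusted p of 0.00865 in the limma model and an adjusted p of 0.214, and 0.0762% of genes passed. Without mono-culture FFA replicate 1 it passed (1.30, adjusted p = 0.0467), and without replicate 2 of that group it was 0.64 (adjusted p = 0.160). It was 0.50 in edgeR (adjusted p = 0.264), 0.72 in DESeq2 (adjusted p = 0.114) and 0.19 after thinning (adjusted p = 0.993). The last value of the co-culture FFA group rested on 8 reads. For FFA, edgeR and DESeq2 called none of the 10.

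Co-culture likewise gave no call among the 10 in HepG2 (limma, 0 of 14430 genes, 0%), and none had an unadjusted p under 0.05 (1114 genes in all). By contrast edgeR called GSTA1 (3.08, adjusted p = 0.0189) and AKR1C2 (−0.84, adjusted p = 0.0222) and DESeq2 none. Over all genes, the alternative settings called 0 to 44. The smallest p in limma was that of GSTK1 (0.49, SE 0.24, interval −0.06 to 1.04, adjusted p = 0.655), whose highest library was the shallowest one. GSTA1 in HepG2 had 0 and 0.98 CPM in mono-culture control, 2.36 and 7.28 CPM in mono-culture FFA, 16.9 and 10.6 CPM in co-culture control, and 34.0 and 0 CPM in co-culture FFA. In reads, co-culture control held 28 and 10, the co-culture FFA libraries 5 and 0, and the 4 mono-culture libraries 0 to 2. The limma effect was 1.76 (SE 1.11, interval −0.79 to 4.31), and 3.35 without FFA (SE 1.57, adjusted p = 1).

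The level of GSTA1 in HepG2 co-culture, pooled over replicates, was 7.88% of that in Caco-2 co-culture under control and 10.7% under FFA, and that of GSTA2 was 1.80% and 5.07%. Genes that Caco-2 expresses and HepG2 mono-culture lacked or nearly lacked were set beside it. GSTP1 in HepG2 co-culture was at 0.347% and 0.121% of its Caco-2 level. CDH17, an intestinal cadherin, had 0 reads under both treatments, and PHGR1 was at 0.507% and 0. TSPAN8 was at 8.65% under control (16 reads) and at 0 under FFA. It was also present in HepG2 mono-culture, with 3 reads (2.06 CPM) under control and 2 reads (2.86 CPM) under FFA. The HepG2 co-culture FFA libraries were the shallowest and GSTA1 itself rested on 5 reads there, so shares of 0 under FFA say little. Under control the share of TSPAN8 was thus above that of GSTA1, and those of the other genes were below it. The summed level of the 12 Caco-2 markers in HepG2 was 18.2 to 32.3 CPM in mono-culture, 31.4 to 37.0 CPM in co-culture control and 74.8 to 100.7 CPM in co-culture FFA. All 100.7 CPM of the shallowest library came from VIL1, which encodes the brush border protein villin, and there a single read stood for 20.1 CPM. VIL1 was also present in HepG2 mono-culture, at up to 24.4 CPM. The part of Caco-2 RNA in the GSTA1 reads of HepG2 was not tested.

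**Figure D5:**
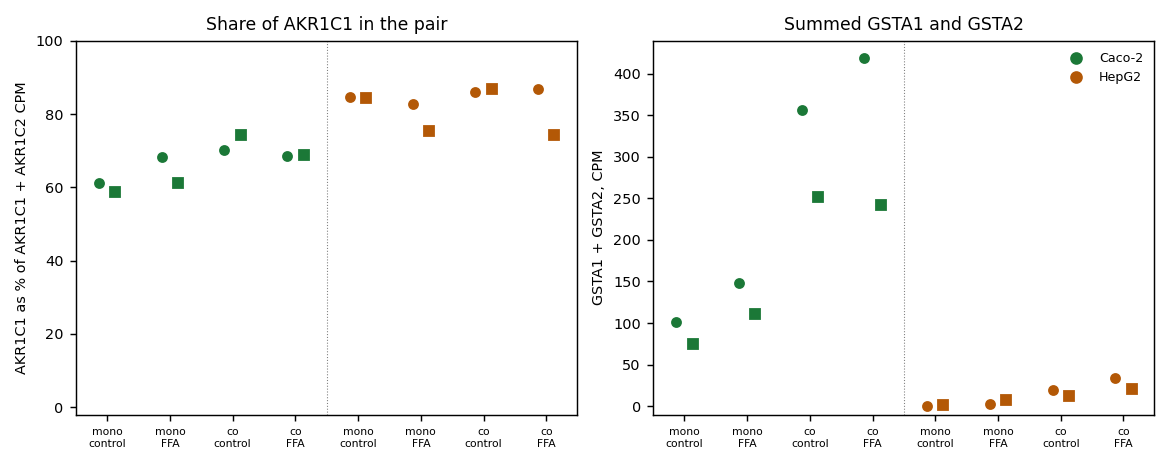
Share of AKR1C1 in the summed CPM of AKR1C1 and AKR1C2 (left, percent) and summed CPM of GSTA1 and GSTA2 (right) in each library by group; circles and squares are replicates 1 and 2. The AKR1C1 share was 58.8% to 74.3% for Caco-2 against 74.2% to 86.8% for HepG2, and the alpha-class sum was 241 to 419 CPM in Caco-2 co-culture against 75.2 to 148 CPM in mono-culture.

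Close relatives outside the 10 genes took few of the reads. Of 12 near copies of the members in the annotation, only GSTA7P, with 14 reads over all libraries, and AKR1C4, the liver AKR1C enzyme, with 3, had any.

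Other genes of the same pathways differed between the lines in both directions. In this averaged contrast, which the lists below share, 12.5% of all genes passed as higher and 17.9% as lower in HepG2 (median −0.16). The average includes co-culture FFA, with the shallowest HepG2 libraries, where the median over all genes was −0.42. Among 8 other aldo-keto reductases, 6 were tested and 2 were higher and 2 lower in HepG2 (median 0.05, beside −0.16 over all genes). AKR1B1, the aldose reductase, was higher in HepG2 at 28.3 to 101 CPM against 3.22 to 26.7 CPM in Caco-2 (2.03, SE 0.39), and AKR1E2 was at 0 CPM in all HepG2 libraries against 7.42 to 19.3 CPM (adjusted p = 2.81e-06, limma). Of 18 other glutathione transferase genes, 12 were tested, with 3 higher and 2 lower (median −0.26). The other microsomal enzymes split, with MGST2 higher in HepG2 at 226 to 363 against 93.2 to 137 CPM (1.38, SE 0.11) and MGST3 lower at 47.3 to 102 against 203 to 428 CPM (−2.17, SE 0.11). GSTM3, a mu-class enzyme, was higher in HepG2 (1.29, SE 0.21).

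Of 18 genes of glutathione synthesis, recycling and export, 17 were tested, 4 were higher and 6 lower (median 0.10). GPX2, a glutathione peroxidase known from the gut epithelium, had 870 to 1087 CPM in HepG2 and 24.1 to 57.5 CPM in Caco-2 (4.67, SE 0.12), while the secreted peroxidase GPX3 had 0 to 24.3 against 91.6 to 109 CPM (−3.35, SE 0.30). ABCC3, an exporter of conjugates, was lower in HepG2 (−2.08, SE 0.36). Of 16 NRF2 targets outside the 2 families, 3 were higher and 4 lower (median −0.20). ME1, the cytosolic malic enzyme that yields NADPH, was at 0 CPM in all HepG2 libraries against 13.3 to 42.0 CPM in Caco-2, and UGDH, which makes UDP-glucuronate, was higher in HepG2 (1.60, SE 0.25). Of 16 tested transcription factors of detoxification genes, none was higher and 6 were lower (median −0.85), though in none of these did the lines keep fully apart. In mono-culture control none of the 16 passed, beside 10.6% of all genes (median −0.77, and 0.0 over all genes).

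Of 14 tested carbonyl, aldehyde and alcohol enzymes outside the aldo-keto family, 7 were higher and 2 lower in HepG2 (median 0.87). DHRS2, a mitochondrial short-chain dehydrogenase, had 436 to 1531 CPM in HepG2 and 0 to 6.16 CPM in Caco-2 (7.63, SE 0.32), and ADH6 and DHRS4 were higher as well (2.92, SE 0.42, and 2.43, SE 0.49). Of 15 tested conjugation enzymes of other kinds, 7 were higher and 0 lower (median 0.16). They included UGT2B10, a glucuronosyltransferase, with 41.0 to 129 CPM against 0 to 1.03 CPM, and the sulfotransferases SULT1A1 (60.4 to 127 against 0 to 3.96 CPM) and SULT1A2 (20.2 to 75.4 against 0 to 1.98 CPM), which are near-identical neighbours whose reads could be split. These lists were chosen with results of these data known.

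With co-culture of Caco-2, genes of these lists that passed in limma were MGST3, which was higher (0.61, adjusted p = 0.0335), and SLC3A2, the heavy chain of the cystine and glutamate exchanger, which was lower (−0.84, adjusted p = 0.0054). None of the 16 NRF2 targets and none of the 4 other aldo-keto reductases tested in Caco-2 passed. Of all genes tested only 0.453% passed in this contrast, so no call in lists this small says little about them.

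The genes whose profile over the 16 libraries was most like that of AKR1B10, among 2028 genes that averaged 50 CPM or more, were IL32 (Pearson r 0.961), NQO1 (0.955) and SEC61B (0.941), and 16 genes had r of at least 0.9. For GSTP1 they were TMEM97 (0.994), AC011479.1 (0.990) and S100A10 (0.989), among 222 genes with r of at least 0.9. The libraries form 2 lines of 8, so a high r chiefly says that a gene separates the lines in the same direction. Median levels in Caco-2 and HepG2 were 143 and 553 CPM for NQO1, a quinone reductase, and 2528 and 119 CPM for S100A10.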

How the data were processed

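Poly(A) RNA of 16 libraries was sequenced as PCR-amplified cDNA on a Nanopore device; the submitters' processing notes name minimap2 2.22 and GRCh38, and the counting step is not given in the sources used here. The authors deposited one value per gene and library under the name TPM, but within a library 98.2% to 99.98% of the values were whole multiples of a single step (tolerance 0.02 of a read), so they were treated as CPM and reads were recovered from the step. The authors describe a Bowtie, STAR and RSEM workflow for mRNA-seq, which is not stated to cover these reads. Uneven depth (49634 to 1657430 reads) sets the floor of 3 reads at 1.81 to 60.4 CPM, and intervals on ratios cover counting error only.

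Values were transformed as log2(CPM + 1). Genes were kept that averaged 1 CPM or more in any group. The limma package (3.58.1, R 4.3.3), with its prior variance following a trend, was fitted over 16 libraries for contrasts between the lines (17544 genes) and over the 8 libraries of a line within it (15454 genes in Caco-2, 14430 in HepG2), with Benjamini-Hochberg adjustment over all genes tested and a threshold of 0.05. All tests were two-sided, except the F-test. The scripts were tested on simulated data. Alternatives were leaving genes unfiltered, keeping those that averaged 10 CPM or more, a pseudocount of 0.1, quantile and median-ratio scaling, a constant prior variance, a replicate block, edgeR 4.0.16 (quasi-likelihood) and DESeq2 1.42.0 on recovered reads, summed paralogs, thinning, and leaving out libraries. All 10 members were named between the lines. Within a line those that passed were named, or else the one with the smallest p, and values of other members were added after they were seen. From each list up to 3 genes were named that passed, kept the lines apart and had the largest difference. Likeness was Pearson's r of log2(CPM + 1). Of 140 listed symbols, 138 were found; the others were not analysed here, and a result of the lists in Caco-2 co-culture is not reported here. The members, the lists and the tests were chosen with earlier results of these data known. Positions and transcripts are from GENCODE on GRCh38 and start-region windows from RefSeq (GRCh38.p14).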

Additional observations from a re-analysis of the deposited data

How the results depend on the processing

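Of the 10 genes, the number that passed between the lines on average was 7 to 10 under 12 alternatives. In mono-culture control it was 5, and it became 3 with a pseudocount of 0.1, 2 after thinning, and 8 with edgeR and with DESeq2. For the line difference in the FFA effect it was 0, and 1 with edgeR. Among the 4 Caco-2 conditions it was 1, then 0 with a pseudocount of 0.1, a constant prior variance or thinning, 2 with no filter, the replicate block or DESeq2, and 3 with only genes averaging 10 CPM or more, or with edgeR. For Caco-2 co-culture it was 1, then 0 with a constant prior variance or thinning, 3 with no filter, quantile scaling, the replicate block, edgeR or DESeq2, and 4 with only genes averaging 10 CPM or more. In HepG2 it was 0 among the conditions, then 2 with edgeR and 1 with DESeq2, and for co-culture 0, then 2 with edgeR.

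Leaving out 1 library at a time, in which the lone library left in a group was assumed to vary like the other groups, gave 9 to 10 genes between the lines on average, 2 to 6 in mono-culture control, 0 to 1 for the line difference in the FFA effect, 0 for that in the co-culture effect, 0 to 1 for each of the Caco-2 conditions, Caco-2 FFA, Caco-2 co-culture, HepG2 conditions and HepG2 FFA, and 0 to 3 for HepG2 co-culture. The call of GSTA1 in Caco-2 co-culture without FFA was lost without any 1 library, and that among the Caco-2 conditions without any 1 of the mono-culture libraries or of the co-culture control libraries (adjusted p up to 0.146). The HepG2 co-culture count of 3 and the line difference count of 1 came without co-culture FFA replicate 1, which left the shallowest library alone in its group. Of the single-gene values, 588 kept direction and side of the threshold, 34 no longer passed, 20 newly passed, and 1 changed sign (AKR1C2, FFA in HepG2 mono-culture, −0.89 after thinning); the cause was not tested.

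Counts over all genes moved more. Between the lines on average 5322 genes passed, and 1280 to 5569 under the alternatives, the lowest after thinning, which leaves fewer reads. In mono-culture control 1851 passed between the lines, and 363 to 2823 under the alternatives. In Caco-2 co-culture 70 passed and 0 to 322 did, 49 of 70 (70%) as higher, but 47.5% with quantile scaling and 51.5% with median-ratio scaling; the direction of GSTA1 was the same under each. The line difference in FFA had 16 and 0 to 604, that in co-culture 17 and 2 to 99, the Caco-2 conditions 24 and 0 to 432, Caco-2 FFA 0 and up to 10, HepG2 FFA 11 and 0 to 630, HepG2 conditions 0 and up to 543, and HepG2 co-culture 0 and up to 44. The labels do not tie replicate numbers to an experiment. Deviations of same-numbered libraries from their group means correlated at −0.00424 to 0.0333 between Caco-2 groups over genes averaging 1 CPM or more and at −0.0172 to 0.291 (mean 0.151) over those averaging 100 CPM or more, and in HepG2 at −0.00867 to 0.0287 and −0.103 to 0.121, so not every pair was above 0.1 and the block was kept as an alternative. With the replicate block 9 genes passed between the lines and 3 in Caco-2 co-culture (GSTA1, GSTA2 and AKR1C2). Depth limits what can be said of AKR1B10 in Caco-2 and of GSTP1, GSTA1 and GSTA2 in HepG2, where levels lie near 3 reads.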
